A study of Mus musculus with 6 samples.

Results

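The collagen family comprised 44 of the 23361 genes in the deposited comparison of muscle satellite cells, taken as every gene whose symbol has the form of a collagen alpha chain (Col, a type number, a, a chain number). RNA had been sequenced from 6 samples of satellite cells, the resident stem cells of skeletal muscle, 3 from AUF1-null mice and 3 from wild-type mice. All mice were 4 months old, bred through C57BL/6 with a 129 background, and the cells had been sorted from collagenase-digested hindlimb muscle on the surface proteoglycan Sdc4. AUF1, encoded by Hnrnpd, binds AU-rich elements in mRNAs and affects their stability, and the design asks which transcripts differ when it is missing. The table gives 1 value per gene for each condition on the FPKM scale (fragments scaled to transcript length and library size), pooled over replicates and named q2 and q1; no header or label ties either name to a genotype, so every difference below is q2 relative to q1 and belongs to no named genotype. No replicate spread stands beside a value, sequencing depth is unknown from this table, and all p-values and q-values are those of Cuffdiff as deposited by the authors.

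Collagens are extracellular matrix proteins whose chains wind together into a stiff helix. Fibrillar collagens build the tensile fibres of interstitial connective tissue, type IV collagen forms the sheet-like network of basement membranes, and type VI forms beaded filaments between the basement membrane and the interstitial matrix. In skeletal muscle, interstitial fibroblasts are known as the main source of collagens I, III and VI, endothelial cells and muscle cells make type IV, and satellite cells lie beneath the basement membrane and make matrix of their own. Types II, IX, X and XI are known mainly from cartilage.

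Hnrnpd was listed at 5.59 FPKM in q2 and 7.50 FPKM in q1 in the authors' deposited table (log2 fold change -0.42, Cuffdiff q-value 0.999), so the targeted gene does not tell the conditions apart. Markers of several cell types were present in both conditions. Over 9 satellite cell markers the summed level was 386 FPKM in q2 and 319 FPKM in q1 by the authors' deposited table, with 4 markers below 0, 5 above and none called. Sdc4, the antigen of the sort, held most of that sum, at 269.7 FPKM in q2 and 173 FPKM in q1. Without it, a sum formed after the values were seen, the other 8 markers were at 116.6 FPKM in q2 and 145.7 FPKM in q1. Pax7, the defining transcription factor, was at 0.854 FPKM in q2 and 1.16 FPKM in q1 of the authors' deposited table. Over 10 fibroblast and fibro-adipogenic markers the sum was 5897 FPKM in q2 and 6734 FPKM in q1, with 6 markers below 0, 4 above and none called. Gsn was the largest part of that sum, at 2822 FPKM in q2 and 3583 FPKM in q1. Over 8 endothelial markers the sum was 1764 FPKM in q2 and 2199.6 FPKM in q1, from the values of the authors' deposited table. In such bulk samples, fewer cells of a type and less RNA per cell cannot be told apart.

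The summed collagen level was lower in q2, and the genes called were a pair of cartilage-type fibrillar collagens, Col2a1 and Col11a1, both lower in q2. The summed level of the 44 genes was 570.4 FPKM in q2 and 893 FPKM in q1, a ratio of 0.639, computed from the authors' deposited table. This was 0.0827% of the summed FPKM of all genes in q2 and 0.140% in q1. The authors' software tested 36 of the 44 genes and marked 8 as not tested, the status Cuffdiff gives to genes with too few alignments. A gene can pass that minimum through its level in 1 condition, so counts and medians over the 36 are descriptions of them and not of all 44. Of the 36 tested genes, 28 had a log2 fold change below 0 and 8 above it, or 77.8% below 0 against 51.35% among all tested genes with a value in both conditions. The median log2 fold change was -0.43, against -0.01 over all tested genes, and with a pseudocount of 1 FPKM it was -0.27.

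At a Cuffdiff q-value below 0.05, 2 of the 36 tested collagen genes were called lower in q2 (background 0.114% of 14858 tested genes) and 0 were called higher (background 0.498%). At an unadjusted Cuffdiff p below 0.05, 7 of the 36 genes lay lower, or 19.4% (background 2.27%), and 2 lay higher, or 5.56% (background 3.72%). The 7 were Col2a1, Col11a1, Col22a1, Col1a2, Col1a1, Col6a3 and Col18a1, and the 2 were Col28a1 and Col19a1. Next to the threshold, Col2a1 had a q-value of 0.0490 in the authors' deposited table and Col22a1, the next gene outside it, one of 0.383.

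**Figure D1:**
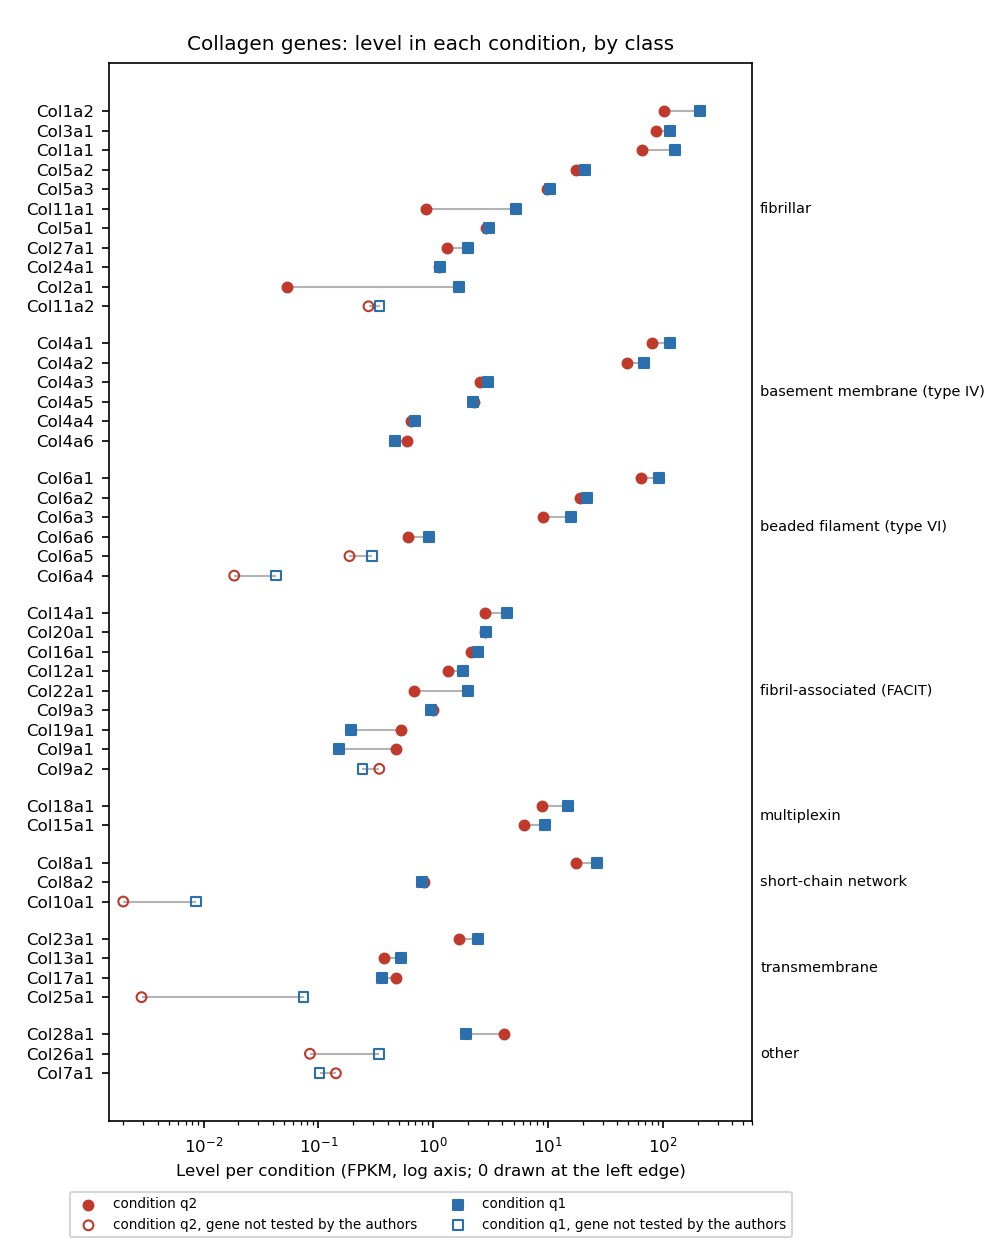
Level of each of the 44 collagen genes (FPKM, log axis) in condition q2 (circles) and condition q1 (squares), grouped by structural class and ordered by mean level; open symbols are the 8 genes the authors' software did not test, and a value of 0 is drawn at the left edge. Col1a2 is at 103 FPKM in q2 and 211 FPKM in q1, and the widest gap among tested genes is that of Col2a1, at 0.0537 and 1.69 FPKM.

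The fibrillar collagens, interstitial and cartilage types together, held more than any other class. The 11 genes summed to 289.9 FPKM in q2 and 500.03 FPKM in q1, a ratio of 0.580 computed from the authors' deposited table. They made up 50.8% of collagen FPKM in q2 and 56.0% in q1. All 10 tested members lay below 0, with a median log2 fold change of -0.52. The 2 called among them were the cartilage-type genes Col2a1 and Col11a1. Without Col1a2, their most abundant member, the ratio was 0.649.

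Col1a2, the alpha-2 chain of type I collagen at chr6:4505697-4541543 (GRCm38), was the most abundant collagen gene, at 103 FPKM in q2 and 211 FPKM in q1 in the authors' deposited table (log2 fold change -1.04, Cuffdiff p = 0.00985, q-value 0.461). Its partner Col1a1, at chr11:94936270-94951856, was listed at 66.1 FPKM in q2 and 128 FPKM in q1 (log2 fold change -0.95, Cuffdiff p = 0.01465, q-value 0.539, the authors' deposited table). Both chains of type I collagen were thus near the same distance below 0, and neither passed the threshold. The ratio of Col1a1 to Col1a2 was 0.644 in q2 and 0.6045 in q1, computed from the authors' deposited table.

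Col3a1, the chain of type III collagen that forms fine fibres together with type I, was listed at 87.4 FPKM in q2 and 116 FPKM in q1 in the authors' deposited table, a log2 fold change of -0.41 (Cuffdiff q-value 0.999). The ratio of Col3a1 to Col1a1 was therefore 1.32 in q2 and 0.906 in q1. Among the chains of type V collagen, which starts fibril assembly, Col5a2 was at 17.4 FPKM in q2 and 21.1 FPKM in q1, Col5a3 at 9.78 and 10.3 FPKM and Col5a1 at 2.88 and 3.08 FPKM in the authors' deposited table. Their log2 fold changes were -0.28, -0.07 and -0.10, and none passed the test. Among types V, III and I, the type V chains lay nearest to 0 and the type I chains farthest below it; whether the genes differ from each other was not tested. Of the minor fibrillar genes, Col27a1 was at 1.31 FPKM in q2 and 2.02 FPKM in q1 and Col24a1 at 1.12 and 1.14 FPKM in the authors' deposited table, without a call.

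The promoter of Col1a2, the most abundant member, is shown beside that of Col11a1, the member with the smallest q-value. Each line gives the 250 bases before the annotated start (RefSeq, GRCm38.p6), and capitals mark CCAAT boxes and GGGCGG boxes on either strand; each promoter held 1 CCAAT box and 2 GGGCGG boxes.
Col1a2, chr6:4505368-4505617, plus strand: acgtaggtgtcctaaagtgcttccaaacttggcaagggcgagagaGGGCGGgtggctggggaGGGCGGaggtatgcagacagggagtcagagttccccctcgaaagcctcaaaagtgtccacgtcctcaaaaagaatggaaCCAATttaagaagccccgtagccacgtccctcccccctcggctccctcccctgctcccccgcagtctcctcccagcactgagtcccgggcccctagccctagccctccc
Col11a1, chr3:114030290-114030539, plus strand: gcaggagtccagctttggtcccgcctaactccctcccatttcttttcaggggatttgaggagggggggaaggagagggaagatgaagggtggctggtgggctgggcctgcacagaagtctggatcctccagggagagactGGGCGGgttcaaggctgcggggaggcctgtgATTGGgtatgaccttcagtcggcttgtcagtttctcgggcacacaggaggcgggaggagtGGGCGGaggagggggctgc
Promoters of 35 of the 44 genes matched by symbol, with the first listed start used for each. On either strand, CCAAT was found in 12 of the 35, or 34.3%, against 34.5% of 27025 promoters of the same length. These 27025 include promoters of genes that were not tested here. GGGCGG was found in 21, or 60.0%, against 32.9%, and TATAAA in 5, or 14.3%, against 13.0%. A match describes letters in this window and nothing of a bound factor.

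The cartilage collagens, which overlap the other classes, held both called genes. Col2a1, the main fibrillar collagen of cartilage at chr15:97975602-98004724, was at 0.0537 FPKM in q2 and 1.69 FPKM in q1 (log2 fold change -4.98, Cuffdiff q-value 0.0490, the authors' deposited table). Col11a1, which forms the core of cartilage fibrils, at chr3:114030540-114220326, was at 0.873 FPKM in q2 and 5.27 FPKM in q1 (log2 fold change -2.59, Cuffdiff q-value 0.0108, the authors' deposited table). With a pseudocount of 1 FPKM the levels were 2.55-fold and 3.35-fold lower in q2, against 31.5-fold and 6.04-fold without it. With genes under 1 FPKM on the higher side left out and p-values adjusted again over the remaining 13417 genes, Col2a1 had a q-value of 0.0510 and was no longer called.

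The tested chains of type IX collagen lay above 0, without a call. Col9a1, a chain of the type IX collagen that coats cartilage fibrils, was at 0.477 FPKM in q2 and 0.152 FPKM in q1 in the authors' deposited table (log2 fold change 1.65, Cuffdiff p = 0.08735). Col9a3 was at 0.994 FPKM in q2 and 0.953 FPKM in q1 (log2 fold change 0.06, the authors' deposited table). The untested Col9a2 was listed at 0.339 and 0.242 FPKM and Col11a2, the partner chain of Col11a1, at 0.273 and 0.341 FPKM in q2 and q1 of the authors' deposited table. Col10a1, the collagen of hypertrophic cartilage, was listed at 0 in q2 and 0.00866 FPKM in q1 and was not tested. The 7 genes together summed to 3.01 FPKM in q2 and 8.66 FPKM in q1, a ratio of 0.348, or 0.631 without Col11a1, from the authors' deposited table. Since Col11a1 chains are also known to assemble with type V chains outside cartilage, its ratio to Col5a2 is given: 0.05004 in q2 and 0.2496 in q1.

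Of 14 chondrocyte markers in the table, 11 were tested, with 5 below 0, 4 above and 2 at 0 in q2. The 2 at 0 were called lower (background 0.114%), and 0 were called higher (background 0.498%). The 14 summed to 82.2 FPKM in q2 and 100.1 FPKM in q1 from the authors' deposited table. Chad held most of that sum, at 55.2 FPKM in q2 and 56.7 FPKM in q1. The proteoglycan core protein gene Acan, a defining marker, was listed at 0 in q2 and 0.465 FPKM in q1 (Cuffdiff q-value 0.0108, the authors' deposited table). Clec3a was listed at 0 in q2 and 1.13 FPKM in q1 with the same q-value in the authors' deposited table, and the untested Matn1 at 0 in both. Comp, a fibril-binding protein of cartilage and tendon, was at 15.7 and 31.2 FPKM (Cuffdiff p = 0.0113, q-value 0.485), and Sox9, the transcription factor of chondrocytes, at 3.23 and 1.81 FPKM (q-value 0.999) in q2 and q1 of the authors' deposited table. Also among the 4 above 0 were Matn3, at 0.688 and 0.156 FPKM, and Epyc, at 0.755 and 0.282 FPKM in q2 and q1. Neither was called. The part of the chondrocyte markers in the Col2a1 and Col11a1 values was not tested.

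**Figure D2:**
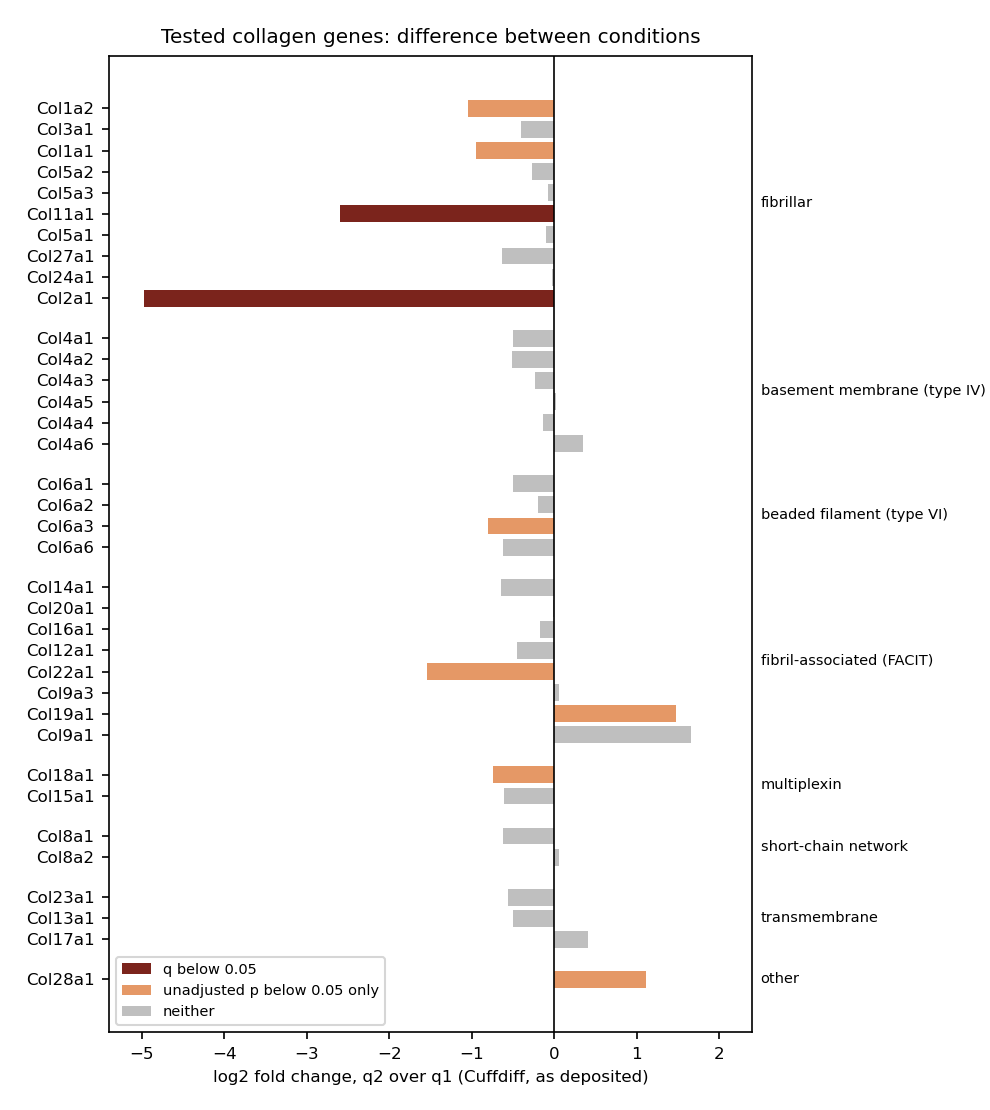
Deposited log2 fold change (q2 over q1) of the 36 tested collagen genes, grouped by class; dark bars have a Cuffdiff q-value below 0.05, orange bars only an unadjusted p below 0.05 and grey bars neither. Col2a1 (-4.98) and Col11a1 (-2.59) are the dark bars, and 28 of the 36 bars point below 0.

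Type IV collagen was carried by its ubiquitous alpha-1 and alpha-2 chains, which lay at near the same distance below 0. Col4a1 was listed at 81.0 FPKM in q2 and 114 FPKM in q1 in the authors' deposited table (log2 fold change -0.50, Cuffdiff p = 0.208). Col4a2 was at 48.1 FPKM in q2 and 68.9 FPKM in q1 (log2 fold change -0.52, Cuffdiff p = 0.174, the authors' deposited table). The ratio of Col4a1 to Col4a2 was 1.68 in q2 and 1.66 in q1. These genes are transcribed away from each other on chromosome 8, and 2 bases separate them in the authors' deposited table (chr8:11198423-11312826 and chr8:11312829-11449287). By their first listed RefSeq starts (GRCm38.p6) they overlap by 22 bases.

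The tissue-restricted type IV chains were low and near 0 in difference. Col4a3 was at 2.55 FPKM in q2 and 2.99 FPKM in q1 and its head-to-head neighbour Col4a4 at 0.634 and 0.696 FPKM in the authors' deposited table, with log2 fold changes of -0.23 and -0.14. On the X chromosome, Col4a5 was at 2.27 FPKM in q2 and 2.23 FPKM in q1 and Col4a6 at 0.592 and 0.466 FPKM in the authors' deposited table, with log2 fold changes of 0.02 and 0.35. As a class, the 6 genes summed to 135 FPKM in q2 and 189 FPKM in q1, a ratio of 0.713, with a median log2 fold change of -0.18 and no call in either direction by the authors' deposited table. That median was -0.36 over the genes of at least 1 FPKM in the higher condition and -0.11 with a pseudocount of 1 FPKM. At unadjusted Cuffdiff p below 0.05 the count was also 0. The whole stretch between the annotated starts of Col4a4 and Col4a3 is 71 bases long (RefSeq, GRCm38.p6) and is shown because it is the shared upstream sequence of that pair; it held none of the 3 promoter motifs, so no letter is in capitals.
Col4a4 to Col4a3, chr1:82586850-82586920, plus strand: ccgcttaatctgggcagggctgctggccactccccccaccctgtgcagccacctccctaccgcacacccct

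Endothelial markers come from a cell type known to make type IV collagen. They lay below 0 in 8 of 8 cases, against 51.35% of all tested genes with a value in both conditions. Their median log2 fold change was -0.32 in the authors' deposited table. Plvap, a protein of endothelial diaphragms, was the called one of the 8 (background 0.114% called lower). It was at 28.8 FPKM in q2 and 139.6 FPKM in q1 (Cuffdiff q-value 0.0108, the authors' deposited table). Vwf was at 31.3 and 66.5 FPKM in q2 and q1 of the authors' deposited table (Cuffdiff p = 0.0105, q-value 0.467). None of the 8 was at 0 in either condition, and their part in the Col4a1 and Col4a2 values was not tested.

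Type VI collagen genes all lay below 0 without a call. Col6a1 was at 64.4 FPKM in q2 and 91.6 FPKM in q1 in the authors' deposited table (log2 fold change -0.51, Cuffdiff p = 0.198). Col6a2 was at 18.8 FPKM in q2 and 21.7 FPKM in q1 (log2 fold change -0.20, the authors' deposited table). Col6a3, the long chain that completes the type VI monomer, at chr1:90766860-90843971, was at 9.10 FPKM in q2 and 15.9 FPKM in q1 (log2 fold change -0.81, Cuffdiff p = 0.01835, q-value 0.575, the authors' deposited table). The ratio of Col6a1 to Col6a3 was 7.08 in q2 and 5.75 in q1. The class summed to 93.1 FPKM in q2 and 130.5 FPKM in q1, a ratio of 0.714, with a median log2 fold change of -0.57 over 4 tested genes of the authors' deposited table. The alternative long chains lie in tandem on chromosome 9 and were low: Col6a6 was at 0.598 and 0.924 FPKM, Col6a5 at 0.186 and 0.291 FPKM and Col6a4 at 0.0185 and 0.0429 FPKM in q2 and q1 of the authors' deposited table, the last 2 untested.

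**Figure D3:**
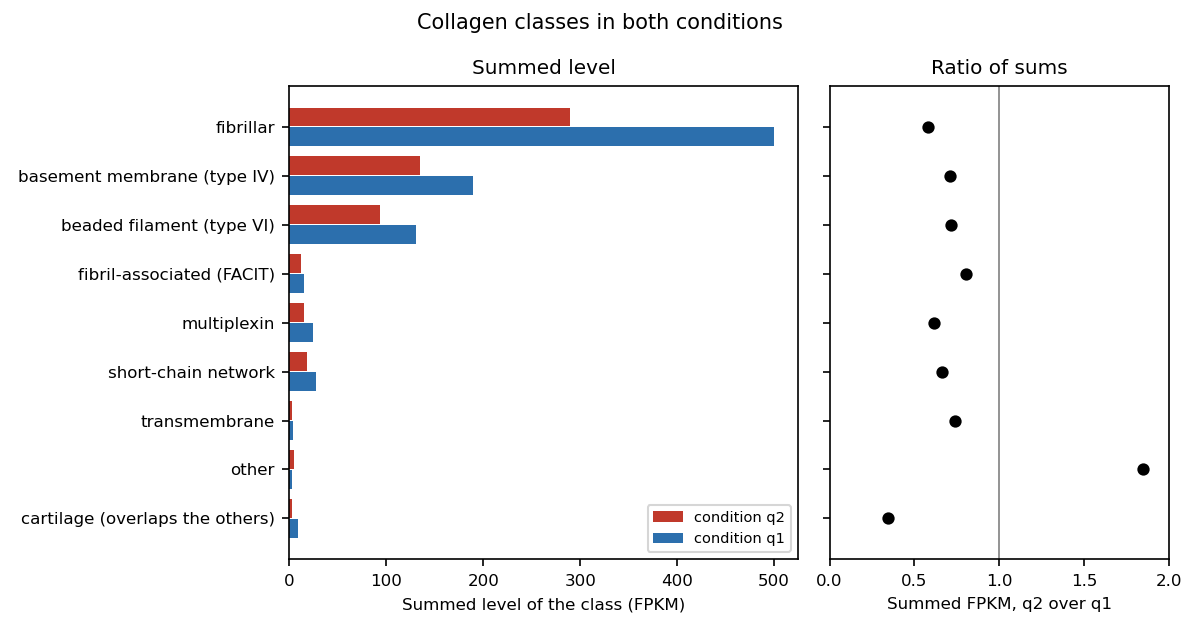
Left, summed FPKM of each collagen class in condition q2 (red) and condition q1 (blue); right, the ratio of these sums, with a line at 1. The sums are 289.9 and 500.03 FPKM for the fibrillar class, and the ratios are below 1 in 8 of 9 classes, the exception being the class named other, where Col28a1 dominates.

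Fibril-associated collagens, which sit on the surface of fibrils, lay on either side of 0, with none called. Col22a1, a collagen of tissue junctions such as the myotendinous junction, was at 0.685 FPKM in q2 and 1.998 FPKM in q1 in the authors' deposited table (log2 fold change -1.54, Cuffdiff p = 0.00745, q-value 0.383). Col14a1 was at 2.82 FPKM in q2 and 4.42 FPKM in q1, Col12a1 at 1.33 and 1.82 FPKM, Col16a1 at 2.15 and 2.43 FPKM and Col20a1 at 2.83 and 2.87 FPKM in the authors' deposited table, none called. In the other direction, Col19a1 was at 0.528 FPKM in q2 and 0.191 FPKM in q1 (log2 fold change 1.47, Cuffdiff p = 0.04005, q-value 0.776, the authors' deposited table). Col19a1 lies 4944 bases from Col9a1 on chromosome 1, and these neighbours had the highest log2 fold changes of the family, both resting on levels under 1 FPKM. The class summed to 12.2 FPKM in q2 and 15.1 FPKM in q1, a ratio of 0.806 from the authors' deposited table.

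Tendon genes stood beside Col22a1 as follows. Of 7 tested tenocyte markers, 6 lay below 0 with a median log2 fold change of -0.25 and a sum of 1009.5 FPKM in q2 and 1089 FPKM in q1 from the authors' deposited table, and 0 were called by Cuffdiff, with 1 at an unadjusted p below 0.05. That gene, Thbs4, was at 51.3 FPKM in q2 and 94.8 FPKM in q1, and Tnmd, a membrane protein of tendon cells, at 23.7 and 37.4 FPKM in the authors' deposited table. Scx, the defining transcription factor, was at 0.193 and 1.28 FPKM in q2 and q1 of the authors' deposited table (q-value 0.999). Thbs4, Tnmd and Scx had the lowest log2 fold changes of the list. Egr1 held most of the sum, at 735 FPKM in q2 and 725 FPKM in q1. Fmod, Kera and Mkx had log2 fold changes of -0.21, -0.25 and -0.14. The part of these tendon genes in the collagen values was not tested.

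Among the basement membrane zone collagens of the multiplexin group, Col18a1, whose end fragment is endostatin, was at 8.78 FPKM in q2 and 14.8 FPKM in q1 in the authors' deposited table (log2 fold change -0.75, Cuffdiff p = 0.04305, q-value 0.792). Col15a1 was at 6.14 FPKM in q2 and 9.41 FPKM in q1 (log2 fold change -0.62, Cuffdiff p = 0.09805, the authors' deposited table). Of the short-chain network collagens, Col8a1, a subendothelial and vessel wall collagen, was at 17.4 FPKM in q2 and 26.7 FPKM in q1 (log2 fold change -0.62, Cuffdiff p = 0.107, the authors' deposited table), while Col8a2 was at 0.831 and 0.797 FPKM. The summed ratio of the short-chain class was 0.663 with Col8a1 and 1.03 without it.

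Transmembrane collagens were low. Col23a1 was at 1.68 FPKM in q2 and 2.47 FPKM in q1, Col13a1, a collagen of the neuromuscular junction, at 0.371 and 0.524 FPKM and Col17a1, of epithelial hemidesmosomes, at 0.476 and 0.358 FPKM in the authors' deposited table, none called. The untested Col25a1 was listed at 0.00289 FPKM in q2 and 0.0743 FPKM in q1. Col28a1, a collagen known from glial cells of peripheral nerve, had the highest level among genes that lay above 0, at 4.15 FPKM in q2 and 1.93 FPKM in q1 in the authors' deposited table (log2 fold change 1.10, Cuffdiff p = 0.03355, q-value 0.735). Of 6 Schwann cell markers, 3 lay above and 3 below 0, summing to 1463 FPKM in q2 and 1385 FPKM in q1 from the authors' deposited table, with none called and none at 0. Their part in the Col28a1 value was not tested. The untested Col7a1 and Col26a1 were at 0.142 and 0.0844 FPKM in q2, against 0.102 and 0.336 FPKM in q1.

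Levels and differences were related as follows across the family. All 13 genes with a mean of at least 5 FPKM lay below 0, with log2 fold changes between -1.04 and -0.07 and a median of -0.52, computed from the authors' deposited table. Over all 8968 tested genes with that mean, 4580 lay below 0 and the median was -0.01. Of the 23 tested collagen genes under 5 FPKM, 15 lay below 0 and 8 above, from -4.98 to 1.65.

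**Figure D4:**
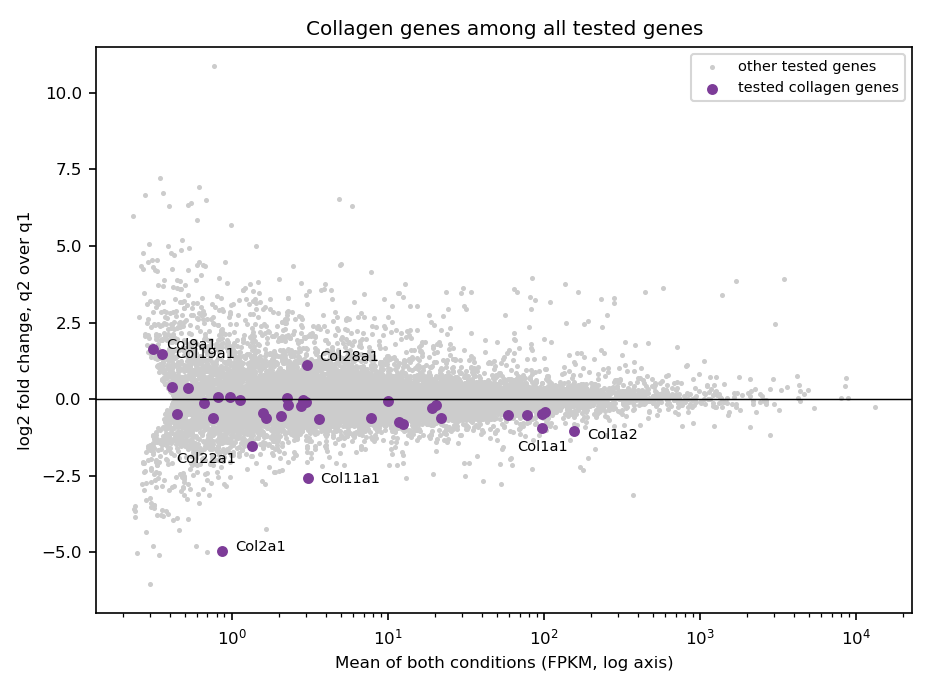
Deposited log2 fold change (q2 over q1) against the mean FPKM of both conditions (log axis) for tested genes with a value above 0 in both conditions; purple points are the 36 tested collagen genes and grey points all other genes. The collagen genes at 5 FPKM or more lie between -1.04 and -0.07, and Col2a1 and Col11a1 lie apart at -4.98 and -2.59.

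Many collagen mRNAs hold, in their 3' ends, a sequence that the choice of genes did not use, the match to the seed of the miR-29 family. This family is known to repress collagen mRNAs; mature miRNAs were not measured here. The mature sequences are printed with the seed, bases 2 to 8, in capitals (RefSeq, GRCm38.p6), and all 3 share it. Only the first listed position is given for each name.
mmu-miR-29a-3p, chr6:31062673-31062694, minus strand: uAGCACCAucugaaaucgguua
mmu-miR-29b-3p, chr1:195037091-195037113, plus strand: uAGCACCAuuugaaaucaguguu
mmu-miR-29c-3p, chr1:195037600-195037621, plus strand: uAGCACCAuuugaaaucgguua
The matching letters, TGGTGCT on the mRNA strand, were found in the longest annotated 3' UTR (GENCODE vM21, GRCm38) of 22 of the 36 tested collagen genes, or 61.1%, against 15.05% of 13735 other tested genes. Median 3' UTR lengths were near each other, at 1079.5 bases for the collagens and 1136 bases for the others, and matches per kilobase were 0.689 against 0.111. Col4a3 and Col5a1 held 4 each. The median log2 fold change was -0.34 over the 22 collagen genes with a match and -0.47 over the 14 without. Sites in the genes that carry the fibrillar, type IV and type VI results are printed with the match in capitals.
Col1a1, chr11:94952518-94952545, plus strand: gtggggtgggaaggaatttcTGGTGCTa
Col3a1, chr1:45348962-45348989, plus strand: ccaacttcaaaatgtctcaaTGGTGCTa
Col4a1, chr8:11199761-11199788, minus strand: cctctgccaccgtcacaacaTGGTGCTa
Col4a2, chr8:11448339-11448366, plus strand: gctgtgtgggaaggccacgtTGGTGCTt
Col6a3, chr1:90767411-90767438, minus strand: ctgcacgtgacctgtcaataTGGTGCTa
Col11a1, chr3:114219063-114219090, plus strand: ttttcctatttggatttcgtTGGTGCTg
Col2a1, chr15:97975681-97975708, minus strand: ggactgcgtgtcctacacaaTGGTGCTa
The Col1a1 site lies beyond the 3' end of the gene in the authors' deposited table, at base 94951856, so reads there would fall outside the counted model. Col1a2 and Col6a1 held no match in this annotation.

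AU-rich letters, the class of element that AUF1 binds, were counted in the same 3' UTRs. ATTTA was found in 27 of 36 tested collagen genes, or 75.0%, against 69.2% of the other genes. The longer TATTTAT, which contains ATTTA, was found in 10, or 27.8%, against 29.6%. The median log2 fold change was -0.43 over the 10 collagen genes with TATTTAT and -0.35 over the 26 without. The 10 were Col2a1, Col11a1, Col3a1, Col4a3, Col5a2, Col8a1, Col9a1, Col12a1, Col13a1 and Col24a1. Their log2 fold changes ran from -4.98 (Col2a1) to 1.65 (Col9a1). For the called genes Col2a1 and Col11a1, 1 match in each is printed in capitals.
Col2a1, chr15:97975821-97975849, minus strand: tctcggtgttcTATTTATttattgtcttc
Col11a1, chr3:114219762-114219790, plus strand: aaataagcaatTATTTATaaatttgtgca

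The genes that make and process collagen chains lay nearer to 0 than the collagen genes by their median, a difference that was not tested. Of 25 tested biosynthesis genes, 0 were called in either direction by Cuffdiff (background 0.114% lower and 0.498% higher). At an unadjusted Cuffdiff p below 0.05, 0 lay lower and 1 higher (background 2.27% and 3.72%). Their median log2 fold change was -0.18 in the authors' deposited table. The same backgrounds apply to the lists that follow, and 0 called in a list this short says little. Serpinh1, the collagen chaperone of the endoplasmic reticulum, was at 115 FPKM in q2 and 162 FPKM in q1 (log2 fold change -0.49, q-value 0.999, the authors' deposited table). P4hb, a subunit of prolyl 4-hydroxylase, was at 205 FPKM in q2 and 198 FPKM in q1, and Pcolce, which enhances removal of the C-propeptide, at 215 and 225 FPKM in the authors' deposited table. P4ha3, a catalytic subunit of that hydroxylase, was the gene above 0 at p = 0.0114 (Cuffdiff q-value 0.485), at 0.879 and 0.147 FPKM in q2 and q1 of the authors' deposited table.

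Of 5 cross-linking enzymes, 0 were called, and Loxl2, a lysyl oxidase that acts on type IV collagen, was at 5.99 FPKM in q2 and 10.3 FPKM in q1 in the authors' deposited table (Cuffdiff p = 0.0404, q-value 0.778). Their median log2 fold change was -0.29. Of 9 tested receptors and uptake genes, 0 were called, with a median of -0.36 and 1 gene on either side at an unadjusted p below 0.05. Itga10, the integrin subunit that binds type II collagen on chondrocytes, was at 0.557 FPKM in q2 and 1.66 FPKM in q1 (Cuffdiff p = 0.0174, q-value 0.567, the authors' deposited table). Lair1, an inhibitory collagen receptor of leukocytes, was at 5.31 FPKM in q2 and 2.08 FPKM in q1 (Cuffdiff p = 0.01745, q-value 0.567, the authors' deposited table).

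Among collagen-degrading enzymes, Mmp8 and Mmp9 were called higher in q2. Mmp8, the neutrophil collagenase, was at 56.0 FPKM in q2 and 4.49 FPKM in q1, and Mmp9, a gelatinase, at 32.0 and 9.16 FPKM (log2 fold changes 3.64 and 1.80, Cuffdiff q-value 0.0108 each, the authors' deposited table). These were 2 of 7 tested genes (background 0.498% called higher), of which 3 lay below 0 and 4 above. Mmp2, the gelatinase of stromal cells, was at 56.6 FPKM in q2 and 80.8 FPKM in q1, Mmp14 at 11.4 and 18.6 FPKM and Ctsk at 25.1 and 32.5 FPKM in the authors' deposited table, none called. Mmp13, a stromal collagenase, was at 2.16 FPKM in q2 and 1.15 FPKM in q1 and Fap, a fibroblast surface protease, at 15.1 and 12.0 FPKM in the authors' deposited table, also without a call. Over 10 neutrophil markers, 7 were called higher (background 0.498%). Their sum was 14624 FPKM in q2 and 1125 FPKM in q1 from the authors' deposited table, with none at 0. The part of these markers in the Mmp8 and Mmp9 values was not tested.

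Matrix partners of collagen fibrils had a median log2 fold change of -0.23 over 12 tested genes, with 0 called in either direction by Cuffdiff; at an unadjusted p below 0.05, 1 lay lower, Comp, and 0 higher. Dcn, the proteoglycan decorin that coats type I fibrils, was at 1407 FPKM in q2 and 1259 FPKM in q1, and Lum at 146 and 128 FPKM in the authors' deposited table. Both are also fibroblast markers, and the 10 genes of that marker list had 6 members below and 4 above 0, a median log2 fold change of -0.13 and none at 0 in either condition. Sparc, a collagen-binding protein, was at 1583 FPKM in q2 and 2007 FPKM in q1 (log2 fold change -0.34, the authors' deposited table). Of the remaining markers beside the collagen values, 7 tested osteoblast genes had a median of -0.46 and 6 pericyte and smooth muscle genes one of -0.20, with 0 called and 0 at an unadjusted Cuffdiff p below 0.05 in both lists. The 8 listed osteoblast genes summed to 90.3 FPKM in q2 and 119 FPKM in q1, from the authors' deposited table. The pericyte and smooth muscle genes, 4 below 0 and 2 above, summed to 4225 FPKM in q2 and 3025 FPKM in q1. Most of that sum was Rgs5, at 3553 FPKM in q2 and 2279 FPKM in q1 (Cuffdiff q-value 0.999). The part of both lists in the collagen values was not tested.

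**Figure D5:**
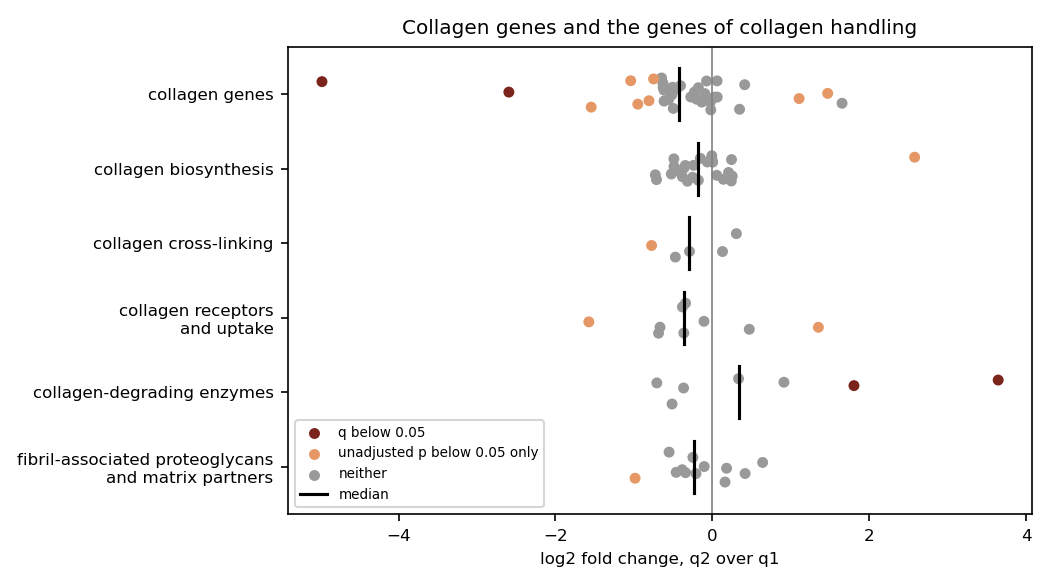
Deposited log2 fold change (q2 over q1) of each tested gene in the collagen family and in the lists of collagen handling; the bar is the list's median, dark points have a Cuffdiff q-value below 0.05 and orange points only an unadjusted p below 0.05. Medians are -0.43 for collagen genes, -0.18 for biosynthesis and 0.33 for the degrading enzymes, where Mmp8 and Mmp9 are the dark points.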

How the data were processed

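RNA of 6 samples, 3 per genotype, was compared in 1 table with the Cuffdiff column layout. TopHat2 2.0.9 and Cufflinks 2.2.1 are named in the submitters' processing notes; for the annotation, library normalization and strand setting, the sources used here give nothing. The authors deposited 1 FPKM value per condition, pooled over replicates; the headers name no unit, which was taken from the Cuffdiff layout. Also deposited were a log2 fold change (q2 over q1), a test statistic (a score, not used), a p-value and the adjusted q-value. Whether a group's samples came from separate mice is not stated, so the spread behind these p-values may be technical. The notes name mm9, but all 44 collagen genes overlapped their RefSeq gene in GRCm38; starts are given 1-based.

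A gene counted as tested at status OK (14858 genes) and as called at a q-value below 0.05. Of all tested genes, 0.114% were called lower and 0.498% higher, the background for every pathway and marker list. A short list without a call therefore says little. The deposited q-values equalled a Benjamini-Hochberg adjustment over the tested genes. Class sums, ratios, medians and motif counts were computed with Python 3.11.15, pandas 2.3.3 and NumPy 2.4.6, and the adjustment was tested on simulated data. With pooled values, no test between samples could be made. The rule for named genes was every member, and of the pathway and marker lists those called, those at an unadjusted p below 0.05 and otherwise the 2 of highest mean; lists away from the collagen results are given as counts, and some list members are not reported here. Outside that rule, Pax7, Sox9, Matn1, Scx, Tnmd, Kera, Mkx, Lum, Serpinh1, Mmp2, Mmp13, Mmp14, Ctsk and Fap were named after their values were seen. The same holds for Chad, Matn3 and Epyc. Members and lists were chosen with earlier results of these data known. Alternatives were other thresholds, a minimum of 1 FPKM, pseudocounts of 0.1 and 1, centring, scaling by total FPKM and leaving out each class's most abundant member.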

Additional observations from a re-analysis of the deposited data

How the results depend on the processing

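The count of 2 collagen genes called lower was the same at a q-value below 0.1. Leaving out genes at exactly 0 in a condition could not change the count, since no tested collagen gene was at 0. The count was 7 at an unadjusted p below 0.05. It was 1 (Col11a1) when genes whose higher value was under 1 FPKM were left out and p-values adjusted again. The count of genes called higher was 0 at both q-value thresholds and with that minimum, and 2 at an unadjusted p below 0.05. The family's median log2 fold change of -0.43 was -0.41 with a pseudocount of 0.1, -0.27 with 1, -0.51 with that minimum and -0.41 centred on all tested genes. Without the most abundant member, the summed ratio was 1.03 for the short-chain class (0.663 with it) and 0.516 for the class named other (1.85 with it). For the satellite cell markers it was 0.7998 without Sdc4 and 1.21 with it, an alternative chosen after seeing the data. A pseudocount added to both conditions cannot change the sign of a log2 fold change, so for the 36 tested genes it bears only on size. No paired analysis was possible because the deposited values are pooled over replicates, and for the same reason no replicate could be left out. Levels under 1 FPKM, among them those of Col9a1, Col19a1, Col2a1 and Col11a1 in q2, have unknown precision, since no counts accompany them.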
